A study of Homo sapiens with 25 samples.

Results

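In all, 10 genes of the S100 family were described on 25 Affymetrix expression arrays of 3 human cell lines sampled around treatment with erlotinib, an inhibitor of the EGFR kinase. The 10 genes are S100A2, S100A4, S100A6, S100A7, S100A8, S100A9, S100A10, S100A11, S100A14 and S100P, out of 19775 genes with a probe set of their own. They were selected on their measured levels per line and their measured changes after erlotinib in these same arrays, so their levels and changes are descriptions, no p-value is printed for a member, and a call only says on which side of the threshold a member lay. The 10 genes had 13 probe sets annotated to a single symbol, and the probe set with the highest mean over the 25 arrays stands for its gene. The fits used the 12643 genes that passed a log2 value of 4 in 3 or more arrays, and all 10 were among them.

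BT20, a breast cancer line, was sampled at 0 min (4 arrays) and at 30 min, 6 h and 24 h after addition of 10 µM erlotinib (3 arrays each). MDA-MB-453, a breast cancer line, was sampled at 24 h and at 0 min (3 arrays each), and a line that the labels call only MCF was sampled at 24 h and at 0 min (3 arrays each). All cells had grown in medium with serum, and no group was kept for 24 h without the drug, so the drug and the time in culture cannot be told apart. Each line is 1 cell line, and the labels do not say that replicates were separate cultures, so standard errors measure the spread between these samples, which may be technical.

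S100 proteins are small dimeric proteins that bind calcium through EF-hand loops and then change their grip on partner proteins. Most S100 genes lie in a cluster on the long arm of chromosome 1, beside genes of the cornified skin envelope, and many are transcribed in epithelial cells. Some members act inside the cell on annexins, myosin or the cytoskeleton, and others, above all S100A7, S100A8 and S100A9, are also secreted and act as antimicrobial and inflammatory signals.

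The sequences just upstream of 5 genes are shown because these genes had the largest changes described here (S100A2, S100A7, S100A8 and S100P) or encode the dimer partner of one of them (S100A9). Each is the 250 bases upstream of the outermost start in RefSeq on GRCh38.p14, read 5′ to 3′ on the gene's strand, and capitals mark the motif matches found.

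S100A8 (chr1:153391189-153391438, minus strand): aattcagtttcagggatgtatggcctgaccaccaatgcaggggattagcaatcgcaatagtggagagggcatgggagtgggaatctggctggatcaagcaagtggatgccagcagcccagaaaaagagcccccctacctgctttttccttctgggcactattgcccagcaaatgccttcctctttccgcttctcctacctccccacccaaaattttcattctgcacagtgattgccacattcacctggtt
S100A9 (chr1:153357604-153357853, plus strand): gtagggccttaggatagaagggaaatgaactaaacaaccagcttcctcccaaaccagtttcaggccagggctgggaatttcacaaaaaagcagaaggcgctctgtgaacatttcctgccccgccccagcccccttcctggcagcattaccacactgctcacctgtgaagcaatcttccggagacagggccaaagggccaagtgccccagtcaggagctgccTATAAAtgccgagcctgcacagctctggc
S100A7 (chr1:153460652-153460901, minus strand): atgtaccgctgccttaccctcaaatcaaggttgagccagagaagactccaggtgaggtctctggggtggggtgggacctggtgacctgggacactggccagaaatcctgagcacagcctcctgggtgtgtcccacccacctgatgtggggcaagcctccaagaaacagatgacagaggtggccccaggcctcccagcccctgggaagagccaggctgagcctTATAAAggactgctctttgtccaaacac
S100A2 (chr1:153565845-153566094, minus strand): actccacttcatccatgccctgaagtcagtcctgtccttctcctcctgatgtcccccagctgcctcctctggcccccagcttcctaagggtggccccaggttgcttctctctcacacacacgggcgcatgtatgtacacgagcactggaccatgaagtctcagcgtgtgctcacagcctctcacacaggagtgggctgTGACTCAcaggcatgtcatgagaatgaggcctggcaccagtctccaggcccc
S100P (chr4:6693628-6693877, plus strand): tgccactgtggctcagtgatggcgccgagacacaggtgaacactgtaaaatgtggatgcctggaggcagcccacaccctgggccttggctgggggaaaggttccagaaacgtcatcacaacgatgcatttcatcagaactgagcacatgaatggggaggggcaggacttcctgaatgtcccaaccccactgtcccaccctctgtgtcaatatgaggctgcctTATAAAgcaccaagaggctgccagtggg

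Letters of 6 motifs were searched on both strands of these windows for all 10 genes, and no match shown overlapped another. The AP-1 letters TGANTCA were in 1 of 10 members, against 6.57% of 35116 windows of the same length. That member was S100A2, whose match began 52 bases upstream of the start. The TATA box letters TATAAA were in 4 of 10 members, against 10.7% of all windows. They began 28 bases upstream in S100A7 and in S100P, 29 in S100A9 and 31 in S100A4. The C/EBP letters TTGCNNAA were in 1 of 10 members, S100A11, against 9.05% of all windows. The STAT letters TTCNNNGAA were in none, against 6.57% of all windows. The ETS letters CCGGAAGT were in none, against 3.42% of all windows. The E-box letters CACGTG were in none, against 6.34% of all windows. These are matches of letters and not sites of binding, and the window of S100A8 held none of them. Only the outermost start of each member was searched, while S100A8 has 3 starts and S100A2 has 2. The shares of all windows cover every start of a gene.

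Levels are log2 GCRMA values throughout. A change is the mean at a time point minus the mean at 0 min of the same line, on the log2 scale, with the standard error (SE) from a limma fit to that line's arrays. A gene was called when its p, adjusted over the 12643 genes by the method of Benjamini and Hochberg, was under 0.05. Where a group mean lay below 4, the size of the difference is inexact. The upper quartile lay between 7.65 and 7.81 for BT20 and MDA-MB-453 and between 7.27 and 7.32 for MCF. The labels put MCF in a separate part, so no difference in level between MCF and the others was computed. Levels of EGFR and the markers in MCF are printed beside the others only as descriptions. Replicate 4 of BT20 at 0 min correlated with the 6 h arrays at 0.990 to 0.992 across genes and with its own group at 0.971 to 0.975, so each BT20 change is also given from a fit in which replicate 4 and 6 h share a term of their own. In that fit 6 h is measured against replicate 4 and the other times against replicates 1 to 3. The MCF replicates were the most spread, with correlations of 0.956 to 0.989 within 24 h and 0.955 to 0.987 within 0 min. As a check of the drug, DUSP6, a phosphatase transcribed when ERK is active, fell by 5.93 ± 0.20 at 24 h in BT20 (adjusted p = 1.21e-09 in limma), while its 24 h change was -0.19 ± 0.09 in MDA-MB-453 (adjusted p = 0.267) and -1.56 ± 0.25 in MCF (adjusted p = 0.198). From a mean of 9.19 at 0 min, DUSP6 in BT20 averaged below 4 at 24 h, so the size of that fall is inexact. EGFR averaged 12.4 in BT20 at 0 min and lay below 4 in both other lines.

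All 3 lines carried epithelial markers at a high level, while markers of blood cells, which are rich in S100A8 and S100A9, were low. EPCAM and CDH1 averaged at least 10.6 at 0 min in each line. None of the 5 blood cell markers (PTPRC, CD14, ITGAM, MPO and LYZ) passed 4 on any array of BT20 or MCF, and 1 of them did in MDA-MB-453. The mean of the 5 ranged from 1.97 to 2.38 in BT20, 2.26 to 2.65 in MDA-MB-453 and 2.34 to 2.69 in MCF. CD14 in BT20 had means of 2.43 at 0 min, 2.59 at 30 min, 2.40 at 6 h and 3.88 at 24 h, below 4 throughout. Its 24 h arrays (lowest 3.83) all lay above its 0 min arrays (highest 2.60). The part of CD14 in the results for S100A8 and S100A9 was not tested. Of the 2 basal keratins measured, KRT5 averaged 12.4 in BT20, 2.86 in MDA-MB-453 and 1.89 in MCF at 0 min, and KRT14 averaged below 4 in the 3 lines at that time (3.89 in BT20). Of 6 luminal markers, 4 passed 4 in BT20 as well, with GATA3 at 11.1 and ESR1 at 8.66 at 0 min. Of 5 fibroblast markers, COL1A1 averaged 9.11 in BT20, 11.1 in MDA-MB-453 and 7.96 in MCF at 0 min. COL3A1 averaged 5.08 in MCF at 0 min and below 4 in the other lines. COL1A2, PDGFRB and DCN averaged below 4 in each line. In bulk RNA, fewer cells transcribing a gene and less RNA per cell cannot be told apart.

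**Figure D1:**
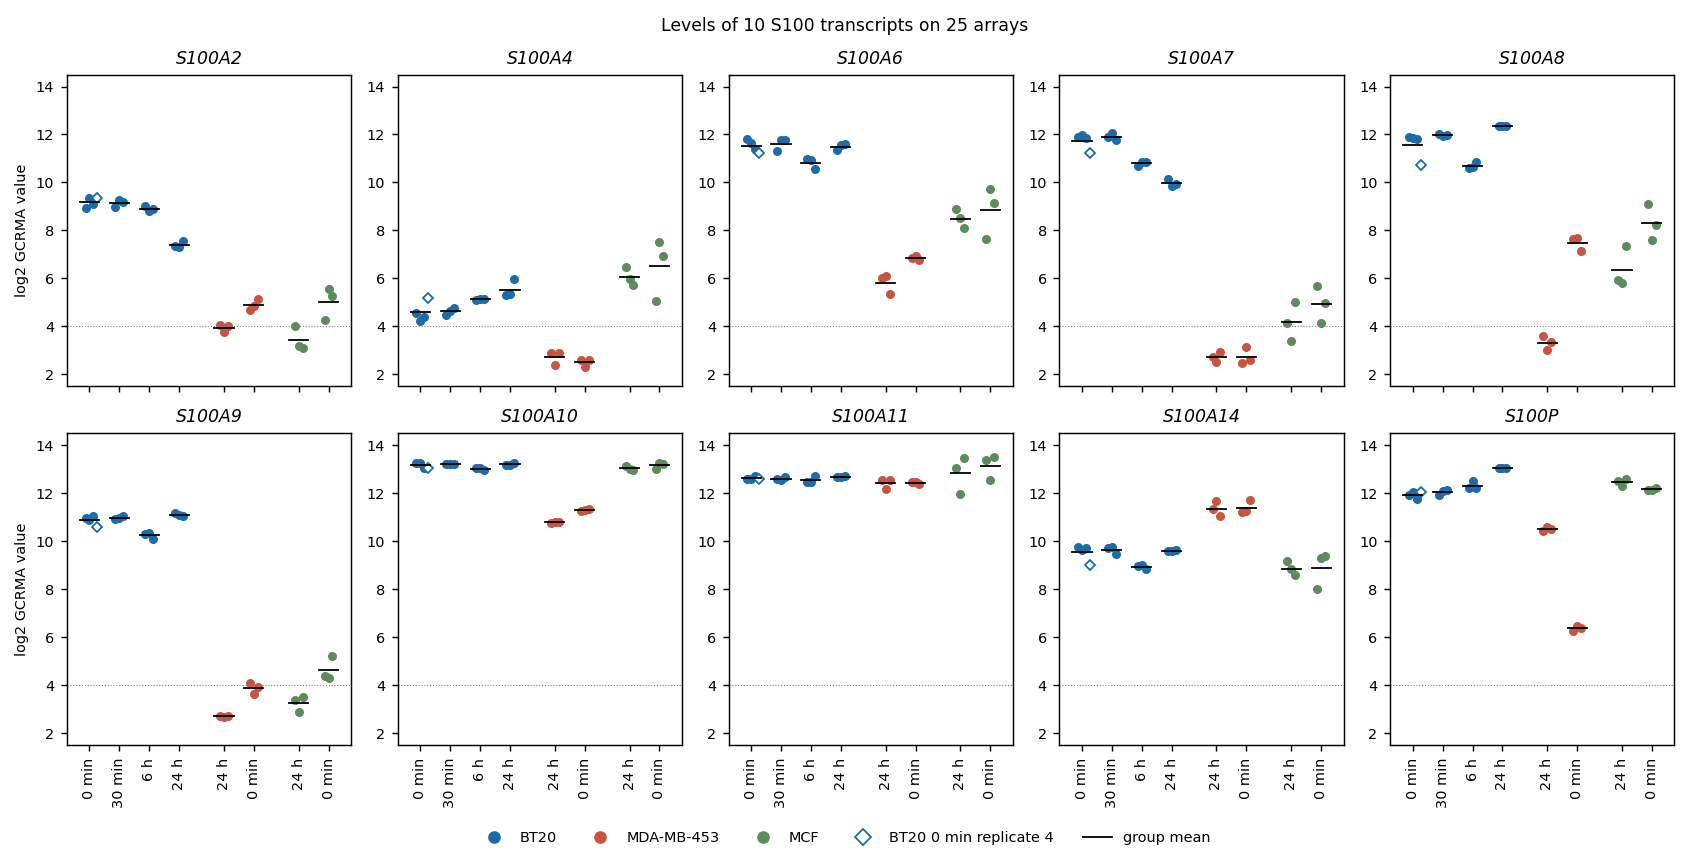
Log2 GCRMA value (y axis) of the 10 S100 transcripts on each of 25 arrays, by line and time after erlotinib (x axis); points are arrays, bars are group means, the open diamond is replicate 4 of BT20 at 0 min and the dotted line is the level of 4 used for testing. S100P is high at 24 h and low at 0 min in MDA-MB-453 (means 10.5 and 6.36), and S100A8 is low at 24 h and high at 0 min in the same line (means 3.32 and 7.49).

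Before erlotinib most of the 10 S100 transcripts were higher in BT20 than in MDA-MB-453. Of the 10 means, 9 were higher in BT20 and 1 was lower, with a median difference of 4.19, while 48.9% of all genes tested were higher in BT20 and the median over all genes was -0.02. The genes were selected on these levels, so nothing is read from this count or median. S100A7, psoriasin, averaged 11.74 ± 0.34 in BT20 (SD, n = 4) and 2.73 ± 0.35 in MDA-MB-453 (SD, n = 3). S100A9 averaged 10.87 ± 0.20 in BT20 and 3.88 ± 0.23 in MDA-MB-453. For both, MDA-MB-453 lay below 4, so the differences of 9.01 and 6.99 are inexact. S100P (11.94 in BT20 and 6.36 in MDA-MB-453), S100A6 (11.51 and 6.85), S100A2 (9.19 and 4.89) and S100A8 (11.58 and 7.49) followed with differences of 5.57, 4.66, 4.29 and 4.08. S100A4 differed by 2.09, with MDA-MB-453 below 4, and S100A10 by 1.87. S100A14 was the exception, at 9.53 ± 0.34 in BT20 and 11.40 ± 0.29 in MDA-MB-453. S100A11, a partner of annexin A1, differed least, at 12.63 ± 0.06 in BT20 and 12.44 ± 0.06 in MDA-MB-453.

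The secreted members S100A7, S100A8 and S100A9 changed in different ways in BT20. S100A7 read 11.89, 11.98, 11.86 and 11.23 at 0 min, 11.88, 12.04 and 11.77 at 30 min, 10.69, 10.83 and 10.86 at 6 h, and 10.14, 9.86 and 9.94 at 24 h. The lowest of the 0 min values is replicate 4, and every 6 h and 24 h array lay below all 0 min arrays. S100A7 fell by 1.76 ± 0.16 at 24 h and by 1.93 ± 0.10 against replicates 1 to 3. At 6 h it fell by 0.95 ± 0.16 against all 4 controls, and its difference from replicate 4 alone was -0.44 ± 0.14, which was not called.

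S100A8 and S100A9 encode the subunits of calprotectin, which binds zinc and manganese. S100A8 read 11.91, 11.85, 11.83 and 10.72 at 0 min, 12.02, 11.92 and 11.99 at 30 min, 10.62, 10.64 and 10.86 at 6 h, and 12.36, 12.34 and 12.36 at 24 h. Replicate 4 at 0 min lay with the 6 h arrays, and the 24 h arrays were above all others. S100A8 rose at 24 h by 0.78 ± 0.23 against all 4 controls and by 0.49 ± 0.08 against replicates 1 to 3. At 6 h it fell by 0.87 ± 0.23 against all 4 controls, and against replicate 4 the difference was -0.02 ± 0.12. The other S100A8 probe set changed in the same direction at both times, by -0.96 and 0.68.

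S100A9 read 10.98, 10.87, 11.04 and 10.59 at 0 min, 10.92, 10.97 and 11.04 at 30 min, 10.32, 10.33 and 10.10 at 6 h, and 11.18, 11.08 and 11.05 at 24 h. It was lowest at 6 h, and its 24 h difference of 0.23 ± 0.11 was not called, with the lowest 24 h array (11.045) next to the highest 0 min array (11.044). At 6 h it fell by 0.62 ± 0.11 against all 4 controls, and its difference from replicate 4 was -0.34 ± 0.13, not called. Over the 13 BT20 arrays, which share 4 time points and the position of replicate 4, S100A8 and S100A9 correlated at 0.926.

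S100P, first described in placenta and a binding partner of ezrin, went up over the BT20 time course. It read 11.92, 12.04, 11.75 and 12.03 at 0 min, 11.93, 12.08 and 12.13 at 30 min, 12.22, 12.51 and 12.23 at 6 h, and 13.07, 13.04 and 13.06 at 24 h. Replicate 4 lay within its group for this gene. S100P rose by 1.12 ± 0.10 at 24 h, a 2.17-fold higher level, and by 1.15 ± 0.10 against replicates 1 to 3. At 6 h it rose by 0.38 ± 0.10 against all 4 controls, and its difference from replicate 4 was 0.29 ± 0.15, not called.

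S100A2, a member of basal keratinocytes that can bind p53, was lower at 24 h. It read 8.92, 9.36, 9.12 and 9.35 at 0 min, 8.97, 9.28 and 9.17 at 30 min, 9.01, 8.83 and 8.89 at 6 h, and 7.34, 7.32 and 7.55 at 24 h. The 24 h arrays lay below every earlier one. S100A2 fell by 1.78 ± 0.12 at 24 h, a 3.45-fold lower level, and by 1.73 ± 0.12 against replicates 1 to 3. Most of the difference lay between 6 h and 24 h (-1.51 ± 0.13), since the 6 h difference was -0.28 ± 0.12 and was not called. Without replicate 1 of 0 min the 6 h difference of -0.37 was called.

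Among the members that act mainly inside the cell, S100A4 rose in BT20 at 24 h and S100A6, S100A10, S100A11 and S100A14 were not called at 24 h. S100A4, which binds nonmuscle myosin, read 4.57, 4.21, 4.41 and 5.17 at 0 min, 4.49, 4.63 and 4.77 at 30 min, 5.11, 5.13 and 5.16 at 6 h, and 5.30, 5.33 and 5.96 at 24 h. Replicate 4 again lay with the 6 h arrays. S100A4 rose at 24 h by 0.94 ± 0.21, and by 1.13 ± 0.16 against replicates 1 to 3. At 6 h the rise of 0.54 ± 0.21 turned to -0.04 ± 0.22 against replicate 4, and the call was also lost without any 1 of the 0 min replicates 1, 2 or 3 or the 6 h replicates 1, 2 or 3 (0.42 to 0.56).

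S100A6, which binds the ubiquitin ligase adaptor CACYBP, read 11.81, 11.64, 11.38 and 11.23 at 0 min, 10.96, 10.93 and 10.56 at 6 h and 11.33, 11.56 and 11.58 at 24 h. It fell by 0.70 ± 0.16 at 6 h (-0.42 ± 0.21 against replicate 4, not called), and its 24 h difference was -0.02 ± 0.16. S100A14 was also lowest at 6 h, with 9.75, 9.64, 9.71 and 9.03 at 0 min, 8.96, 9.02 and 8.83 at 6 h and 9.60, 9.60 and 9.64 at 24 h. It fell by 0.60 ± 0.16 at 6 h against all 4 controls, and its difference was -0.09 ± 0.13 against replicate 4 and 0.08 ± 0.16 at 24 h. S100A10, the partner of annexin A2, and S100A11 ranged from 12.95 to 13.28 and from 12.48 to 12.72 over the 13 BT20 arrays, and neither was called at any time. The second S100A10 probe set and the second S100A6 probe set both differed by -0.59 at 24 h, against 0.04 and -0.02 for the probe sets with the highest mean. At 30 min these second probe sets differed by -0.588 and -0.554, against 0.052 and 0.098. The second S100A6 probe set averaged 4.169 at 0 min, 3.615 at 30 min and 3.574 at 24 h, so its sizes are inexact. The second S100A10 probe set averaged 6.931, 6.343 and 6.336 at these times.

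Counted over the 10 genes, none was called at 30 min, when 0.00791% of all genes tested were called down (1 gene) and 0% up. At 6 h 2 were called up and 5 down, against 26.1% and 25.9% of all genes, and the median change was -0.44 against -0.01 over all genes. With the term for replicate 4, none of the 10 was called at 6 h, against 3.62% of all genes up and 3.61% down, and the median was -0.07. At 24 h 3 were called up (S100A4, S100A8 and S100P) and 2 down (S100A2 and S100A7), against 24.1% and 18.3% of all genes, with a median of 0.07 against 0.03. With the term the same 5 genes were called at 24 h in the same directions, against 30.6% and 24.9% of all genes. At 30 min with the term none was called, against 0% up and 0.0237% down. The genes were selected on these comparisons, so nothing is read from the counts.

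**Figure D2:**
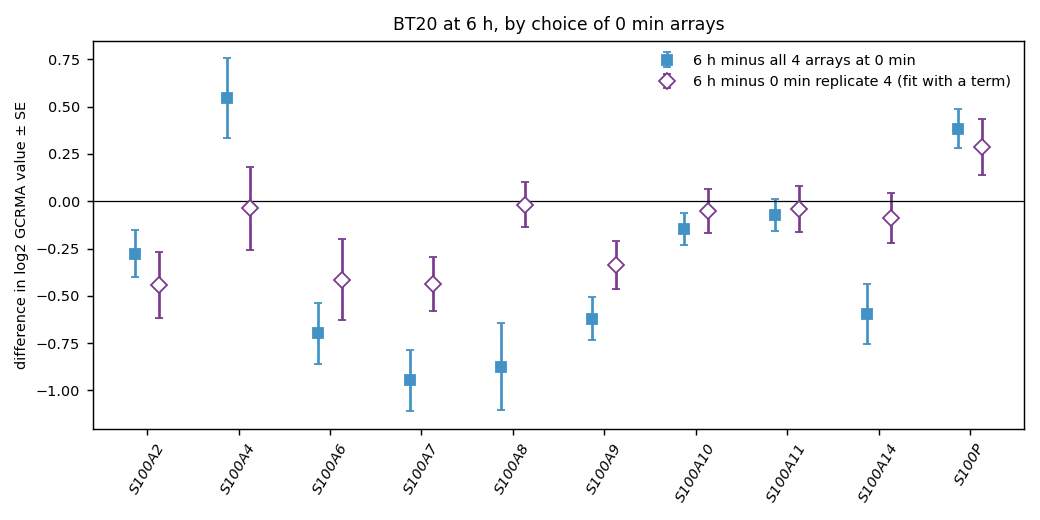
Difference at 6 h in BT20 (y axis, log2 GCRMA value with SE) for each of the 10 genes (x axis), measured against all 4 arrays at 0 min (squares) and against replicate 4 alone in the fit with a term (open diamonds). For S100A8 the difference is -0.87 against all 4 arrays and -0.02 against replicate 4.

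Genes outside the family with the most similar course in BT20 were ranked by Pearson correlation over the 13 arrays for the 4 members whose BT20 group means spanned at least 1 log2 unit. For S100A7 these were CCL22 (0.991), PLEK2 (0.991) and LINC02693 (0.990). For S100A2 they were TAP2 (0.986), IL7R (0.983) and NR4A3 (0.979). For S100A8 they were WDR45 (0.992), ATN1 (0.990) and CERCAM (0.990), and for S100P they were VPS13D (0.982), FRY (0.982) and IGIP (0.979). The 13 arrays share 4 time points, and without replicate 4 of 0 min these correlations lay between 0.977 and 0.992.

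In MDA-MB-453 S100P and S100A8 had the largest changes of the 10 genes, in opposite directions. S100P read 10.43, 10.61 and 10.51 at 24 h, against 6.25, 6.45 and 6.39 at 0 min. The groups lay far apart, and S100P rose by 4.15 ± 0.10, a 17.8-fold higher level. S100A8 read 3.61, 2.99 and 3.35 at 24 h, against 7.65, 7.68 and 7.15 at 0 min. It fell by 4.18 ± 0.21, and since the 24 h mean lay below 4 the size is inexact. The other S100A8 probe set changed by -4.52.

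The dimer partner S100A9 read 2.72, 2.68 and 2.73 at 24 h, against 4.09, 3.62 and 3.91 at 0 min. It fell by 1.17 ± 0.13, but both means lay below 4, so the size cannot be read. S100A7 stayed below 4 on all 6 arrays, as did S100A4. S100A2 read 4.04, 3.74 and 3.99 at 24 h, against 4.70, 4.86 and 5.13 at 0 min, and fell by 0.97 ± 0.14, with the 24 h mean below 4. The call was lost without 0 min replicate 2 or 24 h replicate 1, where the difference was -0.99 and -1.03.

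S100A6 read 6.01, 6.12 and 5.34 at 24 h, against 6.87, 6.93 and 6.76 at 0 min, and fell by 1.03 ± 0.21. S100A10 read 10.76, 10.80 and 10.79 at 24 h, against 11.24, 11.30 and 11.35 at 0 min, and fell by 0.52 ± 0.08. Neither gene's groups overlapped, but both calls were lost when any 1 of the 0 min replicates 1, 2 or 3 or the 24 h replicate 1 was left out, with differences of -1.12 to -0.99 for S100A6 and -0.54 to -0.49 for S100A10. The second probe sets of S100A6 and S100A10 differed by -0.295 and -1.056, with both group means below 4 for each. S100A11 and S100A14 had overlapping groups, with differences of -0.02 ± 0.13 and -0.04 ± 0.20. In all, 1 of the 10 genes was called up and 5 down at 24 h, against 5.66% and 2.64% of all genes tested, with a median change of -0.28 against 0.02 over all genes. The genes were selected on this comparison as well, so nothing is read from the count.

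In MCF none of the 10 genes was called at 24 h in the fit to its 6 arrays, against 0% of all genes called up and 0.00791% called down (1 gene). At an unadjusted p under 0.05 in limma there were 3 of the 10, against 736 of the 12643 genes tested, and since the genes were selected on this comparison nothing is read from either count. S100A8 read 5.94, 5.79 and 7.35 at 24 h, against 9.11, 7.61 and 8.24 at 0 min, a difference of -1.96 ± 0.55 with no overlap. S100A9 read 3.4, 2.87 and 3.49 at 24 h, against 4.37, 4.29 and 5.23 at 0 min (-1.37 ± 0.32), and S100A2 read 4.02, 3.19 and 3.09 at 24 h, against 4.26, 5.54 and 5.25 at 0 min (-1.58 ± 0.41). These 3 were called in a fit to all 25 arrays, which takes the spread of MCF as that of all lines and called 404 of all genes. The 24 h means of S100A9 (3.25) and S100A2 (3.43) lay below 4, so the sizes of their differences are inexact. S100P read 12.52, 12.30 and 12.60 at 24 h, against 12.15, 12.15 and 12.20 at 0 min, a difference of 0.30 ± 0.15. Replicate 1 of 0 min stood apart from the other MCF controls for S100A4 (5.05 against 7.53 and 6.93), S100A6 (7.64 against 9.73 and 9.16) and S100A14 (8.02 against 9.31 and 9.38). S100A10 differed by -0.119, and by 0.451 with its second probe set. The median change of the 10 genes was -0.40, against -0.01 over all genes tested.

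**Figure D3:**
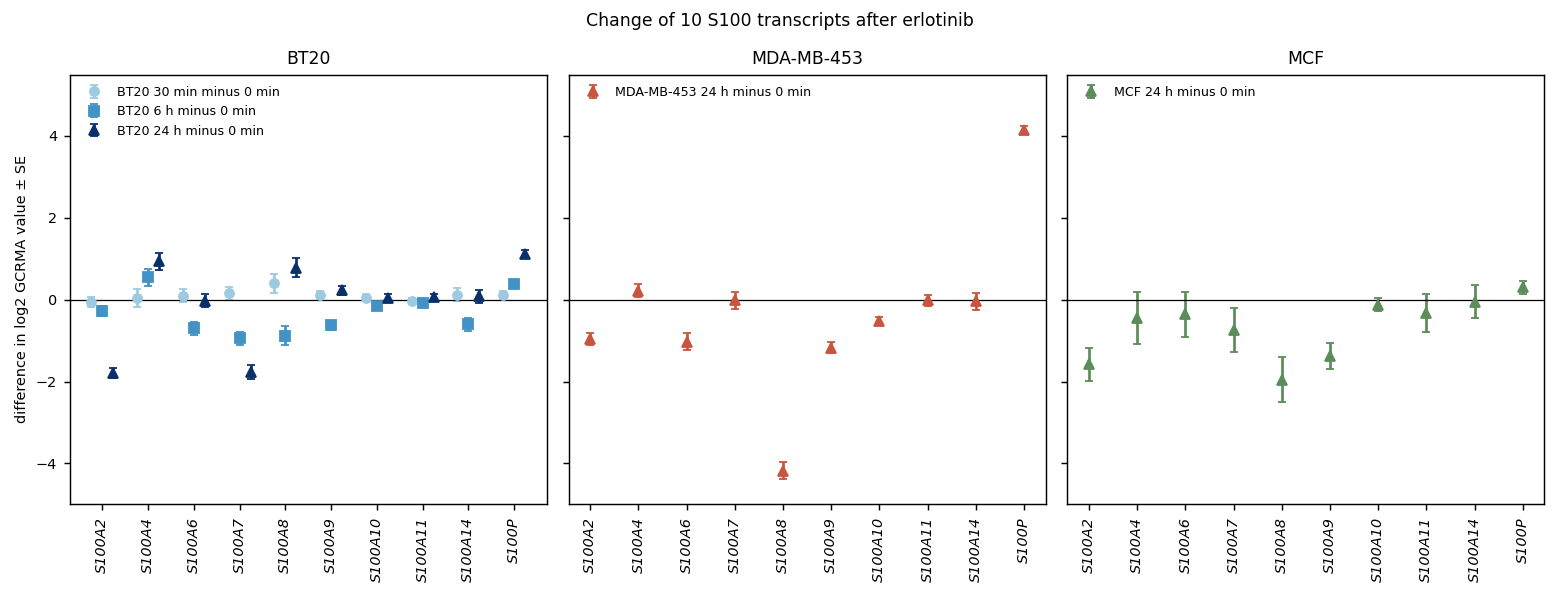
Change of each of the 10 S100 transcripts (x axis) after erlotinib in BT20, MDA-MB-453 and MCF, as the difference from 0 min of the same line in log2 GCRMA value with SE (y axis). At 24 h S100A8 is positive in BT20 (0.78) and negative in MDA-MB-453 (-4.18) and MCF (-1.96), and S100A2 is negative in the 3 lines (-1.78, -0.97 and -1.58). The 24 h mean is below 4 for both genes in MDA-MB-453 and for S100A2 in MCF, so those sizes are inexact.

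Set side by side at 24 h, S100P differed by 1.12 in BT20, 4.15 in MDA-MB-453 and 0.30 in MCF. S100A2 differed by -1.78, -0.97 and -1.58 in the same order, and S100A8 by 0.78, -4.18 and -1.96. The 24 h mean lay below 4 for S100A2 in MDA-MB-453 and MCF and for S100A8 in MDA-MB-453, so those sizes are inexact. S100A7, called down in BT20, was below 4 in MDA-MB-453 and differed by -0.73 ± 0.54 in MCF with overlapping arrays. Differences between the lines in these changes were not tested.

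Of the 10 members, 9 lie on chromosome 1 and S100P on chromosome 4, per RefSeq. The order on chromosome 1 put S100A9, S100A12 and S100A8 side by side, followed by S100A7A, S100A7 and S100A6. Some genes lying close together differed in direction. In BT20 at 24 h S100A8 differed by 0.78 and S100A7 by -1.76, with S100A7A between them. S100A4 differed by 0.94 and S100A2 by -1.78, with S100A3 between them. The neighbours S100A9, S100A12 and S100A8 shared a sign within each line. They differed by 0.23, 0.56 and 0.78 in BT20 and by -1.17, -0.42 and -4.18 in MDA-MB-453. In MCF they differed by -1.375, -1.324 and -1.959, where no member was called. S100A9 was not called in BT20, and S100A12 averaged below 4 in both groups of each line.

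**Figure D4:**
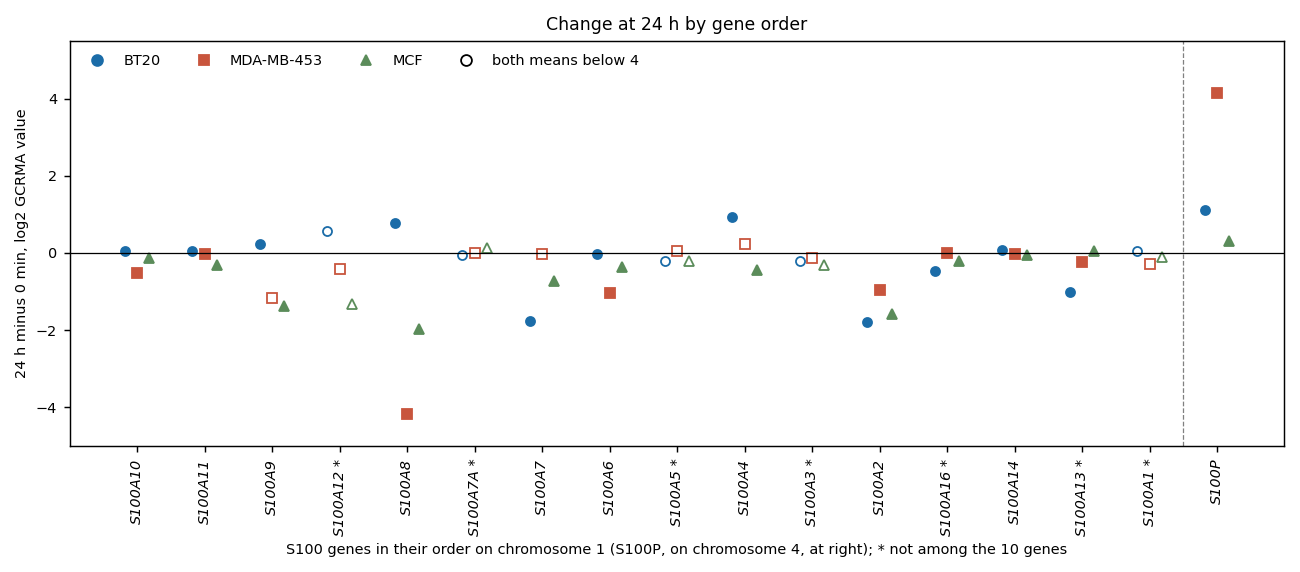
Change at 24 h against 0 min (y axis, log2 GCRMA value) of 16 S100 genes in their order on chromosome 1 and of S100P on chromosome 4 (x axis), in BT20 (circles), MDA-MB-453 (squares) and MCF (triangles); open symbols have both group means below 4, and an asterisk marks genes outside the 10. In MDA-MB-453 S100A8 is at -4.18 and S100P at 4.15.

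Of the other S100 genes, 10 were on the arrays and 2 were tested, S100A13 and S100A16. The remaining 8 (S100A1, S100A3, S100A5, S100A7A, S100A12, S100B, S100G and S100Z) did not reach 4 on 3 arrays. The second S100A7A probe set ranged from 3.897 to 3.951 at 24 h in BT20 and from 2.176 to 2.785 at 0 min. It differed by 1.468, against -0.063 for the probe set with the highest mean. These group means all lay below 4, so the sizes cannot be read. S100A13, which takes part in the release of proteins that lack a signal peptide, read 11.08, 11.03, 11.09 and 11.15 at 0 min, 10.33, 10.77 and 10.46 at 6 h, and 9.94, 10.15 and 10.09 at 24 h in BT20. It fell by 0.57 ± 0.12 at 6 h (limma, adjusted p = 0.00277) and by 1.02 ± 0.12 at 24 h (adjusted p = 1.74e-05). Replicate 4 was the highest of the 0 min arrays and lay far from the 6 h arrays. Against replicate 4 the 6 h fall was 0.63 ± 0.17 (adjusted p = 0.0378 in limma). Its other probe set differed by -0.09 and -0.28 at these times. S100A16 fell by 0.46 ± 0.11 at 24 h (adjusted p = 0.00588 in limma), with 11.99, 11.93 and 12.02 at 24 h and 12.47, 12.37, 12.72 and 12.20 at 0 min. Neither was called in MDA-MB-453 or MCF. The list of other S100 genes was chosen with earlier results of these data known, so these p-values are descriptions.

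Of 20 listed partners and receptors of S100 proteins, 17 were tested. They were listed with earlier results of these data known, so their p-values are descriptions. The receptors AGER and TLR4, through which S100A8 and S100A9 signal, did not reach 4 on 3 arrays. In BT20 at 24 h 2 of the 17 rose and 3 fell, where 24.1% and 18.3% of all genes did, and the median change was -0.06 against 0.03 over all genes. ANXA1, the annexin that binds S100A11, fell by 1.09 ± 0.18 (limma, adjusted p = 0.000362), with means of 8.58 at 24 h and 9.66 at 0 min. ANXA6 rose by 1.13 ± 0.16 (adjusted p = 0.000109) and ALCAM, a cell adhesion protein, by 0.81 ± 0.16 (adjusted p = 0.00156). MYH9, the nonmuscle myosin that S100A4 binds, fell by 0.51 ± 0.14 (adjusted p = 0.0123), with overlapping arrays.

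At 6 h in BT20 1 of the 17 partners rose and 5 fell, where 26.1% and 25.9% of all genes did. None was called with the term for replicate 4, where 3.62% of all genes were called up and 3.61% down. BSG fell by 0.86 ± 0.18 (adjusted p = 0.003 in limma), MYH9 by 0.61 ± 0.14 (adjusted p = 0.00522), ANXA2, the partner of S100A10, by 0.53 ± 0.15 (adjusted p = 0.0102) and MCAM by 0.49 ± 0.14 (adjusted p = 0.0121), with its 6 h mean below 4. Against replicate 4 their differences were -0.32, -0.15, -0.35 and -0.28. The call of MCAM was also lost without replicate 2 of 6 h (-0.37, adjusted p = 0.0609 in limma). In MDA-MB-453 1 of 17 was called, beside 5.66% of all genes up and 2.64% down, and it was MYH9, which fell by 0.64 ± 0.13 (adjusted p = 0.0357 in limma). That call was lost without any 1 of 0 min replicates 1, 2 or 3 or 24 h replicates 1 or 3 (adjusted p = 0.0682 to 0.137). None was called in BT20 at 30 min or in MCF. There 0 and 1 had an unadjusted p under 0.05 in limma, against 498 and 736 of the 12643 genes tested.

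Other EF-hand genes outside the family were listed beside it, with 19 of 25 listed tested. This list was chosen with earlier results of these data known, so its p-values are descriptions. In BT20 at 24 h 4 of the 19 rose and 3 fell, beside 24.1% and 18.3% of all genes, and the median was 0.04 against 0.03 over all genes. CALB2, calretinin, fell by 2.19 ± 0.20 (limma, adjusted p = 3.7e-06), EFHD2 fell by 1.20 ± 0.23 (adjusted p = 0.000972), NUCB1 rose by 1.11 ± 0.23 (adjusted p = 0.00193) and the calpain subunit CAPN1 rose by 0.68 ± 0.10 (adjusted p = 0.000119). At 6 h 2 of the 19 rose and 6 fell, beside 26.1% and 25.9% of all genes. CALB2 fell by 1.35 ± 0.20 (adjusted p = 0.00069 in limma) and EFHD2 by 1.20 ± 0.23 (adjusted p = 0.00217). CETN3 rose by 0.77 ± 0.16 (adjusted p = 0.00352 in limma) and RCN2 by 0.38 ± 0.11 (adjusted p = 0.0124). With the term for replicate 4, CALB2 alone was called among the 19 at 6 h (-1.01 ± 0.27, adjusted p = 0.0439 in limma). The RCN2 call was also lost without replicate 1 of 6 h (0.33, adjusted p = 0.0545 in limma). In MDA-MB-453 1 rose, NUCB2 by 0.69 ± 0.11 (adjusted p = 0.017 in limma). That call was lost without any 1 of 0 min replicates 1, 2 or 3 or 24 h replicate 1 (adjusted p = 0.052 to 0.0855). None was called in BT20 at 30 min or in MCF. There 0 and 4 had an unadjusted p under 0.05 in limma, against 498 and 736 of the 12643 genes tested.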

How the data were processed

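Total RNA was labelled with biotin and hybridised to 25 Affymetrix arrays, per the labels' protocols. The deposited values are log2 values per probe set, made by the authors with GCRMA 2.20.0 in R 2.11.1, per the submitters' processing notes. They were used as deposited in R 4.3.3 with limma 3.58.1. Of 54613 probe sets, 41091 carried 1 gene symbol, 1801 several and 11721 none in the annotation used. Genes above 4 on at least 3 arrays were tested (12643). A linear model with 1 mean per time point was fitted to each line alone across all genes, with 9 residual degrees of freedom for BT20 and 4 each for MDA-MB-453 and MCF, and was tested on simulated data. Named genes outside the 10 are up to 4 called genes of each list per comparison, those with the smallest p, besides EGFR and DUSP6. The members and lists were chosen with earlier results of these data known. Same-numbered replicates did not consistently deviate together (r from -0.642 in MDA-MB-453 replicate 3 to 0.796 in MCF replicate 2), so no block was used. Alternatives covered the fit, filter, probe sets, normalization, replicate block and each array. For arrays, their number limits the precision.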

Additional observations from a re-analysis of the deposited data

Results flagged for a closer look

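In the 26 genes named with a list or as members, the 4 arrays of BT20 at 0 min were checked for an array set apart, using the gap to the nearest array divided by the whole range and Dixon's critical value for 4 samples. Chance gives about 1 such array in 20 separate groups, but the same 4 arrays recur for every gene and the genes were selected with their values known, so that rate does not apply to the number found here. Replicate 4 stood apart for S100A8 (10.72 against 11.83 to 11.91, ratio 0.936), S100A14 (9.03 against 9.64 to 9.75, ratio 0.856), S100A7 (11.23 against 11.86 to 11.98, ratio 0.834) and BSG (8.87 against 9.56 to 9.66, ratio 0.874). Replicate 3 stood apart for S100A11 (12.72 against 12.60, ratio 0.975), over a range of 0.12.

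For S100A8 all 24 h arrays lay above all 0 min arrays in BT20 and below them in both MDA-MB-453 and MCF. The 24 h change in BT20 minus that in MDA-MB-453 was 4.95, and minus that in MCF it was 2.74. The value of 4.95 is inexact, since the 24 h mean of S100A8 in MDA-MB-453 lay below 4. For S100A9 the difference was 1.40 for BT20 minus MDA-MB-453 and 1.61 for BT20 minus MCF. Its BT20 arrays barely separated (lowest 24 h value 11.045, highest 0 min value 11.044), and its change there was not called. Its means in MDA-MB-453 and its 24 h mean in MCF lay below 4. These differences were not tested.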

How the results depend on the processing

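Of the 10 genes, 5 were called in BT20 at 24 h, also when any 1 array was left out. All genes called there numbered 5358 of 12643. In the fit to all 25 arrays 3 of the 10 were called, beside 4149 of 12643 genes. With probe sets averaged per gene 6 were called, beside 5460 of 11985 genes. With every probe set tested 7 were called, beside 11283 of 29774 probe sets. There a gene was counted where at least 1 of its probe sets was called, so genes with several had more chances. In the fit to all 25 arrays the 6 h counts were 3 of 10 members (7 in the fit to BT20 alone) and 0 of the other S100 genes (1). They were 3 for the partners (6) and 5 for the EF-hand genes (8), beside 4827 of all genes (6579). The 24 h counts in that fit were 1 of the other S100 genes (2) and 4 EF-hand genes (7). In MCF that fit called 3 members, 1 partner and 1 EF-hand gene (0 in the fit to MCF alone). With the term for replicate 4 and 6 h, 0 members, 0 partners and 1 EF-hand gene were called at 6 h, and S100A4 turned to -0.038. Averaging probe sets turned S100A10 at 24 h in BT20 to -0.275, which was called. With every probe set tested, 12 partner genes had at least 1 probe set called at 6 h in BT20. At 24 h there were 9 in BT20 and 0 in MDA-MB-453. The other S100 genes called at 6 h numbered 2 with no filter or with the replicate block. The EF-hand genes called in MDA-MB-453 numbered 2 (1 in the fit as reported) in the Part 1 fit, with no filter, with a filter at 6, with probe sets averaged, with every probe set and with quantile normalization repeated. With the replicate number as a block, in which replicate 4 of BT20 takes no part, MDA-MB-453 had 1 member called (S100P), 0 partners and 0 EF-hand genes, with 3 of all genes called against 1049. The replicate numbers did not consistently pair the samples. Leaving out 1 array gave 6 to 7 members, 1 to 2 other S100 genes, 4 to 9 partners and 5 to 13 EF-hand genes at 6 h in BT20, 4 to 5 partners and 6 to 8 EF-hand genes at 24 h in BT20, and 3 to 6 members, 0 to 1 partners and 0 to 1 EF-hand genes in MDA-MB-453, where 261 to 414 of all genes were called without 1 of the 0 min arrays or 24 h replicate 1. Of all genes, 914 were called at 6 h in BT20 with the term against 6579 (13719 probe sets with every probe set tested, and 11283 against 5358 genes at 24 h), and 404 in MCF in the fit to all 25 arrays against 1. The cause of these shifts was not tested.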
